A study of Homo sapiens with 4 samples.

Results

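The cytosolic DNA and RNA sensing pathway was followed across 4 RNA-seq libraries of MDA-MB-468 mammospheres through 10 genes chosen by name, out of 26475 genes in the count tables: MB21D1 (also called CGAS), AIM2, IFI16, TLR3, TMEM173 (also called STING1), MAVS, TBK1, IRF3, TREX1 and IFNB1. All 10 were found in the tables under these symbols. MDA-MB-468 is an established basal-like triple-negative breast cancer (TNBC) line, and mammospheres are the floating colonies that its cells form in low-attachment culture. The cells had been given lentiviral Cas9 with mCherry and a vector for a doxycycline (dox) inducible guide with GFP, and were sorted as a pool for both colours, so no library is a clone. The CTL and CTL+dox libraries came from cells with a control vector without and with dox. The gRNA2 and gRNA2+dox libraries came from cells with a guide to TCOF1, a nucleolar factor of ribosomal RNA synthesis, without and with dox. The labels give the first 3 as wild type and gRNA2+dox as the TCOF1 knockout. Mammospheres were grown for 7 days on 6 to 7 plates per group, and each group has 1 library, so differences have no replicate check and no p-value is given. The dose and timing of dox for these cultures were not given in the sources used here.

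Cells treat DNA in the cytosol as a sign of infection or damage. cGAS, the product of MB21D1, binds such DNA and makes a cyclic dinucleotide that activates STING, while double-stranded RNA in the cytosol is read by RIG-I and MDA5, which signal through MAVS. Both routes activate the kinase TBK1, which phosphorylates IRF3 to switch on IFNB1 and a set of antiviral genes, and the exonuclease TREX1 removes cytosolic DNA before it is sensed.

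The CTL and CTL+dox libraries held 19960644 and 22467410 reads on genes, and the gRNA2 and gRNA2+dox libraries 26322847 and 22168624. The smallest level this depth can show, taken as 3 reads, was 0.148, 0.133, 0.114 and 0.137 CPM (reads scaled to library size) in the same order. TCOF1 had 1019 and 754 reads in CTL and CTL+dox, and 1318 and 437 in gRNA2 and gRNA2+dox. It was lowest in the library labelled as the knockout, with a log2 ratio of -1.32 to gRNA2 and -0.74 to CTL+dox, and CTL+dox was itself below CTL (-0.59). Reads outside annotated genes were 12.5% of the gRNA2+dox library and 10.6% to 11.3% of the others. All 10 basal-like breast markers were detected, at a summed 19154 to 21202 CPM. The luminal breast list summed to 152 to 205 CPM, most of it from GATA3. Of 11 white blood cell markers, 9 stayed under 10 reads in every library, 4 of them at 0 throughout, and PTPRC, which marks all white blood cells, had 1 or 2 reads per library. The white blood cell list summed to 106.5 and 118.6 CPM in CTL and CTL+dox, and to 126.3 and 121.6 in gRNA2 and gRNA2+dox, most of it from CD68. Fibroblast markers summed to 16.98 to 21.5 CPM and endothelial markers to 13.6 to 16.5 CPM, both highest in gRNA2+dox. Most of the fibroblast sum came from COL1A1 and most of the endothelial sum from KDR. Of 6 fibroblast markers, 2 reached 10 reads in any library. The part of these in the results below was not tested.

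AIM2 and IFI16, sensors of the same protein family, had the largest differences among the members compared, and their promoters are shown here with those of TLR3 and IFNB1, whose RNA was near absent. A promoter window is 250 bases before to 50 bases after the start of a transcript. RefSeq on GRCh38.p14 gave windows for 7 of the 10 members; MB21D1, TMEM173 and IRF3 were not matched. Each window was searched on both strands for the core of the interferon-stimulated response element (ISRE), which is GAAA, any 2 bases and GAAA again and which IRF factors bind, and for the gamma-activated site (GAS), TTCNNNGAA. Capitals mark matches. AIM2 was read on the reverse strand at chr1:159076717-159077016, IFI16 on the forward strand at chr1:159008741-159009040 and chr1:159009657-159009956, TLR3 on the forward strand at chr4:186068906-186069205 and IFNB1 on the reverse strand at chr9:21077893-21078192.
AIM2: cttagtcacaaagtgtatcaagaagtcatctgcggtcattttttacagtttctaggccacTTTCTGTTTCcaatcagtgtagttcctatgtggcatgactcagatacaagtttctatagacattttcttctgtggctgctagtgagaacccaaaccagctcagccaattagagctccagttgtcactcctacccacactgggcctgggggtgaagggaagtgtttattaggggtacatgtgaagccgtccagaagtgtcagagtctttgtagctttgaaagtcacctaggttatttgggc
IFI16 upstream start: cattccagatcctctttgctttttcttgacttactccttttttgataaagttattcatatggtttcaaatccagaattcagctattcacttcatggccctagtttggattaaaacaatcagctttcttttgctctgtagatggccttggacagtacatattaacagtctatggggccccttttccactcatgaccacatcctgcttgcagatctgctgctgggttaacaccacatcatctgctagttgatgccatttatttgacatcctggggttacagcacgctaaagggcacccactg
IFI16 downstream start: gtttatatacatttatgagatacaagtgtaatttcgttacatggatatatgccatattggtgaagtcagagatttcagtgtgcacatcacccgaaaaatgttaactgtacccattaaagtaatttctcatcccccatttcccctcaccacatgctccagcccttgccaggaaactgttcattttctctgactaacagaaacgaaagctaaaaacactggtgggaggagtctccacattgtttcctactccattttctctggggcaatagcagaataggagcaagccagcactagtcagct
TLR3: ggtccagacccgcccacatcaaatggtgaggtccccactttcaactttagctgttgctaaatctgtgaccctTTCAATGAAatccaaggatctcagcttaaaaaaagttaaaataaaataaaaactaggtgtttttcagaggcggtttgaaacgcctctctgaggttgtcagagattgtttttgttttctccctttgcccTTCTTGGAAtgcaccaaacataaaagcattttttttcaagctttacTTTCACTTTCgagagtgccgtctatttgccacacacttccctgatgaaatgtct
IFNB1: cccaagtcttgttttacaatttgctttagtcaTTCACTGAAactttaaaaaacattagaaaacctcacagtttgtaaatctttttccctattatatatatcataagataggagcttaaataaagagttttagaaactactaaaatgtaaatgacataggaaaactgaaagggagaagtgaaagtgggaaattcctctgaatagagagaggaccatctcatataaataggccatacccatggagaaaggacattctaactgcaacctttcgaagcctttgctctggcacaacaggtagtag

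The AIM2 window held 1 ISRE core on the opposite strand, from base -190 to base -181 relative to the start. The TLR3 window held an ISRE core that spans the start and 2 GAS matches, and the IFNB1 window held 1 GAS match. Neither IFI16 window held a match, nor did those of MAVS, TBK1 and TREX1. Of all 35116 promoter windows, 3.57% held an ISRE core and 7.66% a GAS match. Each motif was found in 2 of the 7 members with a window, counting a gene with a match in any of its windows. The shares above are of windows and not of genes, so the measures are unlike. A match is a run of letters and not evidence that a factor was bound. Sites with other spacing or letters were not searched for. A window without an ISRE core, such as that of IFNB1, is thus not shown to lack sites for IRF factors.

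The members differed widely in level. On the scale of CPM per kilobase of canonical transcript, the CTL library had 31.5 for IRF3, 14.02 for TREX1, 13.98 for TMEM173, 10.5 for TBK1, 5.05 for MAVS and 2.13 for MB21D1. Below these came IFI16 with 0.343, AIM2 with 0.248, IFNB1 with 0.118 and TLR3 with 0.041 on the same scale. The adaptors, the kinase, the transcription factor and the nuclease were thus all present in mammospheres at levels above that of the cytosolic DNA sensor cGAS, while the endosomal RNA sensor had at most 6 reads in any library and the interferon at most 3. In gRNA2+dox the order was the same down to MB21D1 (1.42 CPM per kilobase) except that TMEM173 (13.2) and TREX1 (12.8) changed places, neighbours whose levels lay close in every library. AIM2 (1.12) then stood above IFI16 (0.826). The plot of member levels shows CPM without division by length, so its order differs. In CTL it has MAVS (59.2 CPM) above IRF3 (50.3 CPM).

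**Figure D1:**
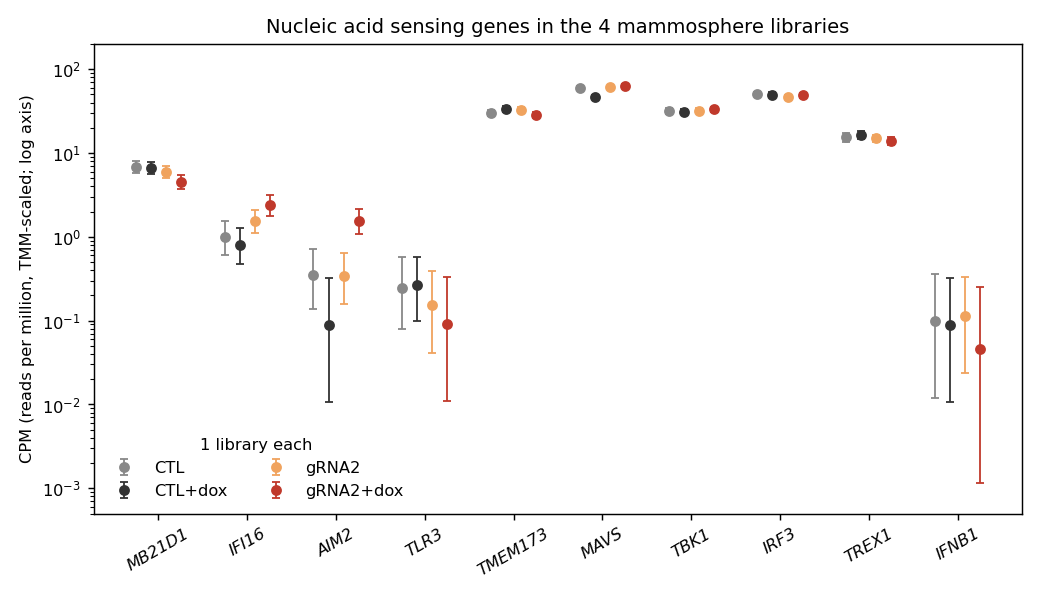
Level of each of the 10 genes in each library, as CPM on a log axis, not divided by transcript length. Each point is 1 library, and bars are exact 95% intervals for counting error. AIM2 and IFI16 are highest in gRNA2+dox, while TBK1 and IRF3 lie together in the 4 libraries.

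A gene with at least 10 reads in at least 1 library was compared, which left 15204 genes and 8 of the 10 members. TLR3 and IFNB1 did not reach this. Differences were judged by 2 rules. The stricter rule follows the form of the study's cutoffs for lower genes, a log2 ratio beyond 1 and a bound beyond 0.5. It uses a bound from Poisson counting error in place of the GFOLD value and was applied in both directions. A wider rule asks for a ratio beyond 1.5-fold with an exact 95% interval clear of no change. Intervals hold counting error alone, so they compare a pair of libraries and not the conditions. The 3 comparisons of gRNA2+dox share that library, so they are not independent of each other.

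Against gRNA2, the same pool without dox, AIM2 passed the stricter rule as higher and was the member to do so, where 0.316% of all genes compared were called higher and 0.27% lower. Under the wider rule AIM2 was again the 1 member called, with 1.82% of genes called higher and 2.2% lower. Against CTL+dox, AIM2 and IFI16 passed the stricter rule as higher, where 0.487% of genes were called higher and 1.03% lower. The wider rule called the same 2 members there, with 2.56% of genes higher and 4.2% lower. Against CTL, AIM2 passed the stricter rule, where 0.441% of genes were higher and 0.895% lower. The wider rule called AIM2 and IFI16 higher and MB21D1 lower against CTL, with 1.82% of genes higher and 3.85% lower. No member passed either rule in CTL+dox against CTL, where the stricter rule called 0.0855% of genes higher and 0.184% lower and the wider rule 1.39% and 1.75%. None passed in gRNA2 against CTL, where these shares were 0.145% and 0.447%, and 1.33% and 2.75%. AIM2 entered the comparison through its reads in gRNA2+dox alone, so its call is described here and no share of called members is read from it.

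AIM2, which binds double-stranded DNA in the cytosol and assembles an inflammasome, had 7 and 2 reads in CTL and CTL+dox, and 9 and 34 in gRNA2 and gRNA2+dox. Scaled to library size these were 0.346, 0.0889, 0.342 and 1.56 CPM. The gRNA2+dox library was clearly the highest, and the other 3 did not differ beyond counting error. AIM2 was 4.35-fold higher in gRNA2+dox than in gRNA2 (interval 2.14 to 10.8) and 4.28-fold higher than in CTL (1.96 to 12.0). Against the 2 reads in CTL+dox the log2 ratio was 3.83 (2.17 to 7.23), and with a prior count of 5 in place of 0.5 it was 2.50. In a bulk library, more cells with AIM2 RNA and more AIM2 RNA per cell cannot be told apart. The like holds for every gene here, higher or lower.

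IFI16, a mostly nuclear DNA sensor that can act with STING, had 20 and 18 reads in CTL and CTL+dox, and 41 and 52 in gRNA2 and gRNA2+dox. These were 0.988, 0.800, 1.56 and 2.38 CPM. The 2 libraries of the gRNA2 pool were the higher ones, with or without dox. The log2 ratio of gRNA2+dox was 1.55 to CTL+dox (0.78 to 2.43), 1.25 to CTL (0.50 to 2.09) and 0.61 to gRNA2 (-0.01 to 1.24). The gRNA2 library without dox exceeded CTL+dox by a log2 ratio of 0.94 (0.13 to 1.85), while its ratio to CTL was 0.64 (-0.15 to 1.5). The ratios with dox in either pool, and that between the pools without dox, were thus within counting error.

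AIM2 and IFI16 are neighbours on chromosome 1. By RefSeq on GRCh38.p14, IFI16 spans 158999976 to 159055151 and AIM2 spans 159055051 to 159147132, so the annotated genes overlap by 101 bases. Counts summed over both strands equalled the unstranded counts in both genes, 52 reads over the 4 libraries for AIM2 and 131 for IFI16. The other 2 genes of this family in the region, chosen after their values were seen, were near absent. MNDA, at 158831351 to 158849502, had 0 reads in every library, and PYHIN1, at 158931552 to 158990870, had 1 read in gRNA2 and 0 elsewhere.

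MB21D1 on chromosome 6 (73423711 to 73452297) encodes cGAS. It had 138 and 151 reads in CTL and CTL+dox, and 158 and 99 in gRNA2 and gRNA2+dox, or 6.82, 6.71, 6.0 and 4.53 CPM. The gRNA2+dox library was the lowest, and the other 3 did not differ beyond counting error. Its log2 ratio was -0.40 to gRNA2 (-0.78 to -0.03), -0.56 to CTL+dox (-0.95 to -0.19) and -0.59 to CTL (-0.98 to -0.21). The last value is just past 1.5-fold, and the call was lost with DESeq2 size factors (-0.58), with a prior count of 5 (-0.56) and with counts summed over both strands (-0.58). With total counts alone for scaling, the ratio to CTL+dox came to -0.59 and passed.

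Among 9467 genes with at least 200 reads on average, SPAG5, LRAT, PTPN22 and DSG4 were of the 5 whose pattern over the 4 libraries lay nearest to that of MB21D1. The distances of these genes from it ran from 0.030 to 0.068 on the log2 scale, with levels centred on each gene's mean. SPAG5, a mitotic spindle protein, had 222 and 244 reads in CTL and CTL+dox, and 251 and 162 in gRNA2 and gRNA2+dox. This likeness rests on 4 libraries and carries no test.

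TLR3, the endosomal receptor for double-stranded RNA, had 5 and 6 reads in CTL and CTL+dox, and 4 and 2 in gRNA2 and gRNA2+dox. IFNB1, which encodes interferon beta, had 2, 2, 3 and 1 reads in the same order. IFNB1 was at or under the limit of 3 reads in every library, so no fold is given, and a difference in it was not detectable at this depth. The differences in TLR3 were likewise within counting error in every pair of libraries.

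**Figure D2:**
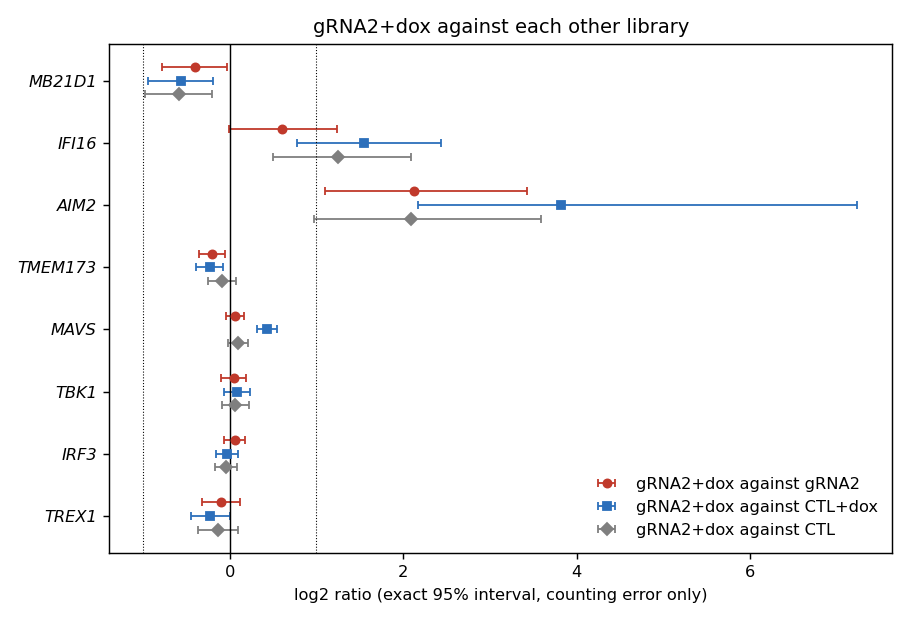
Log2 ratio of gRNA2+dox to each other library for the 8 members compared, with exact 95% intervals for counting error; TLR3 and IFNB1 had too few reads. The intervals of AIM2 lie above 0 against all 3 libraries, those of MB21D1 below 0, and those of TBK1 and IRF3 across it; dotted lines mark 2-fold.

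The adaptors moved little. TMEM173 on chromosome 5 (139475533 to 139482758) encodes STING, the adaptor in the endoplasmic reticulum that cGAS activates. It had 614 and 753 reads in CTL and CTL+dox, and 866 and 624 in gRNA2 and gRNA2+dox, or 30.3, 33.5, 32.9 and 28.6 CPM. The gRNA2+dox library was lowest, with a log2 ratio of -0.20 to gRNA2 (-0.35 to -0.05) and -0.23 to CTL+dox (-0.38 to -0.07). Its ratio to CTL, -0.09, had an interval across 0 (-0.25 to 0.08). These differences lay beyond counting error in 2 of 3 comparisons and far short of 1.5-fold.

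MAVS on chromosome 20 (3846834 to 3876118) encodes the mitochondrial adaptor of RIG-I and MDA5. It had 1198 and 1057 reads in CTL and CTL+dox, and 1595 and 1382 in gRNA2 and gRNA2+dox, or 59.2, 47.0, 60.6 and 63.3 CPM. Here CTL+dox stood apart as the low library, and the other 3 did not differ beyond counting error. The log2 ratio of gRNA2+dox was 0.43 to CTL+dox (0.31 to 0.55), against 0.06 to gRNA2 (-0.04 to 0.17) and 0.10 to CTL (-0.02 to 0.21). CTL+dox was below CTL by a log2 ratio of -0.33 (-0.45 to -0.21), so the difference from CTL+dox was also seen without the TCOF1 guide.

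The kinase and the transcription factor were level. TBK1 on chromosome 12 (64452120 to 64502114) had 642 and 702 reads in CTL and CTL+dox, and 846 and 724 in gRNA2 and gRNA2+dox, or 31.7, 31.2, 32.1 and 33.2 CPM. IRF3 on chromosome 19 (49659572 to 49665857) had 1018, 1120, 1235 and 1064 reads, or 50.3, 49.8, 46.9 and 48.7 CPM. No pair of libraries differed beyond counting error in either gene. Against gRNA2 the log2 ratio of gRNA2+dox was 0.05 for TBK1 (-0.10 to 0.19) and 0.06 for IRF3 (-0.06 to 0.17), intervals that leave out differences of 1.5-fold between these libraries. IRF3 overlaps BCL2L12, and counts summed over both strands were 1.28 times its unstranded counts, so part of its reads was set aside as ambiguous. Transcript levels carry no information on phosphorylation of TBK1 or IRF3, by which the pathway signals.

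TREX1, the exonuclease for cytosolic DNA, lies on chromosome 3 (48465830 to 48467645), where RefSeq also places ATRIP and the ATRIP-TREX1 readthrough, so its reads are uncertain. It had 311 and 368 reads in CTL and CTL+dox, and 396 and 306 in gRNA2 and gRNA2+dox, or 15.4, 16.4, 15.04 and 14.02 CPM. The lowest library was gRNA2+dox, with a log2 ratio of -0.10 to gRNA2 (-0.32 to 0.12) and -0.22 to CTL+dox, the latter with an interval that ends at 0. The log2 range of TREX1 over the 4 libraries was 0.22, below that of MB21D1 (0.59) and MAVS (0.43).

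The study ran dox on control cells as well, so the log2 ratio with dox in gRNA2 cells was set against that in CTL cells. This uses all 4 libraries, and its interval covers counting error only. For AIM2 the ratio was 2.12 in gRNA2 cells and -1.72 in CTL cells, a difference of 3.84 (1.82 to 6.82). With a prior count of 5 that difference was 2.53. Its part from CTL cells rests on 7 and 2 reads without and with dox, a ratio within counting error. The part from gRNA2 cells rests on 9 and 34 reads. For MAVS the difference was 0.40 (0.24 to 0.56), which came from the lower level in CTL+dox. For TMEM173 it was -0.34 (-0.56 to -0.13), with ratios of -0.20 in gRNA2 cells and 0.14 in CTL cells. The intervals of IFI16 (0.90, -0.17 to 2.01) and MB21D1 (-0.38, -0.88 to 0.11) covered 0. So did those of TREX1 (-0.19), TBK1 (0.07) and IRF3 (0.07).

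**Figure D3:**
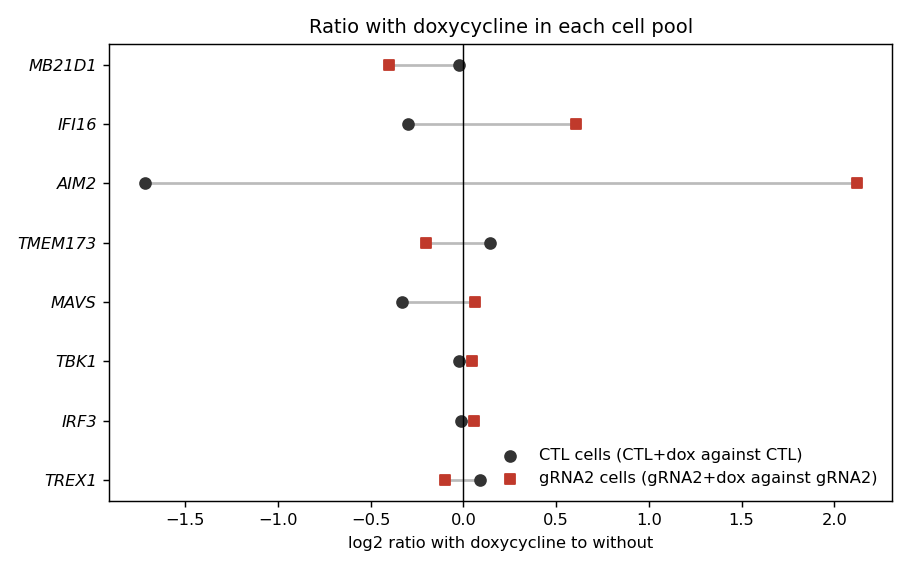
Log2 ratio with dox to without in gRNA2 cells and in CTL cells for the 8 members compared. Each point compares 2 libraries, and a grey line joins the 2 points of a gene. No intervals are drawn. AIM2 lies at 2.12 in gRNA2 cells and -1.72 in CTL cells, MAVS is low with dox in CTL cells, and the points of TBK1 and IRF3 are near 0 in both.

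Around the members, a list of 104 further genes of the pathway in 14 roles was examined, of which 92 had enough reads. The list was chosen with earlier results of these data known, so its counts and medians are a description and not a test of the pathway. Under the 1.5-fold rule, 6 were higher and 1 lower in gRNA2+dox than in gRNA2, 7 higher and 3 lower than in CTL+dox, and 6 higher and 1 lower than in CTL. The median log2 ratio of the 92 genes was 0.04, 0.04 and 0.03 in these comparisons, where that of all genes compared was 0.00 in each. In CTL+dox against CTL 1 gene, CXCL10, was called higher, and in gRNA2 against CTL 1 gene, ZCCHC3, was called lower. The shares of all genes called higher and lower were 1.82% and 2.2% against gRNA2, 2.56% and 4.2% against CTL+dox, and 1.82% and 3.85% against CTL. They were 1.39% and 1.75% in CTL+dox against CTL and 1.33% and 2.75% in gRNA2 against CTL. The lower calls of the list, and its single calls in the last pair of comparisons, lay below these shares. The genes called higher in gRNA2+dox against both gRNA2 and CTL+dox were IFIT1, IFIT2, IFIT3, CXCL10 and IRF1.

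The higher genes were mostly those that IRF3 and interferon switch on. In this role 8 genes were compared, with a median log2 ratio of 0.73 to gRNA2 and 1.09 to CTL+dox. The genes of the role were also chosen with earlier results known, so these medians describe them alone. IFIT2, an antiviral RNA-binding protein, had 46 and 46 reads in CTL and CTL+dox, and 74 and 185 in gRNA2 and gRNA2+dox. Its log2 ratio was 1.59 to gRNA2 (1.20 to 2.0) and 2.04 to CTL+dox (1.58 to 2.55). IFIT1, which binds viral RNA that lacks the host cap methylation, had 37, 27, 47 and 74 reads, and its log2 ratios were 0.92 and 1.48. IFIT3, its partner, had log2 ratios of 1.59 and 1.68. CXCL10, a chemokine for T cells, had log2 ratios of 3.18 to gRNA2 and 2.23 to CTL+dox, and it was also the gene called higher in CTL+dox against CTL (0.74, 0.01 to 1.53).

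Other genes of the same role differed less. ISG15, a ubiquitin-like modifier, had 716 and 844 reads in CTL and CTL+dox, and 890 and 1000 in gRNA2 and gRNA2+dox, and its log2 ratio was 0.44 to gRNA2 (0.31 to 0.57) and 0.29 to CTL+dox (0.15 to 0.42). RSAD2, which encodes viperin, had 895, 950, 998 and 910 reads, with log2 ratios of 0.14 and -0.02. The role was thus not uniform, since the IFIT genes and CXCL10 passed the rule in both comparisons and ISG15, RSAD2 and CCL5 in neither. OASL passed it as higher against CTL+dox but not against gRNA2. OASL and CCL5 were chosen after their values were seen. An ISRE core was in every promoter window of IFIT1, IFIT3, CXCL10 and ISG15. RSAD2 had a window with an ISRE core and a window without. IFIT2, OASL and CCL5 had no window. Counting a gene with a match in any of its windows, 16 of the 81 genes of the wider list with a window had an ISRE core and 13 a GAS match. Of all promoter windows, 3.57% and 7.66% held these. The last shares are of windows and not of genes, and a gene with several windows has more chances of a match, so the measures are unlike.

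Among transcription factors, IRF1, which interferon gamma induces, had 1026 and 1030 reads in CTL and CTL+dox, and 1597 and 2059 in gRNA2 and gRNA2+dox. Its log2 ratio was 0.64 to gRNA2 (0.54 to 0.73) and 1.04 to CTL+dox (0.93 to 1.15), and both libraries of the gRNA2 pool were above both CTL libraries in CPM. RELA, a subunit of NF-kappaB, had log2 ratios of -0.04 and 0.28. IRF7, chosen after its values were seen, was called higher against CTL+dox (0.60, 0.49 to 0.73) and had a ratio of 0.43 to gRNA2.

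The interferon genes examined were near absent. The gene of interferon gamma was not among them. Of 8 interferon genes in the wider list, 1 had enough reads to compare: IFNL1, a type III interferon, had 7 and 5 reads in CTL and CTL+dox, and 15 and 8 in gRNA2 and gRNA2+dox. IFNL2 had 2, 3, 1 and 3 reads. The receptors were present, and IFNAR1, a chain of the type I interferon receptor, had 2041, 2493, 2729 and 2316 reads with log2 ratios of 0.03 to gRNA2 and -0.06 to CTL+dox. IFNLR1, a chain of the type III receptor, had ratios of -0.04 and -0.12.

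Of 6 RNA sensors, 5 DNA sensors and 4 adaptors compared outside the members, ZBP1 was called against gRNA2 and TLR7 against CTL+dox, and the others were called in neither comparison. RIG-I, encoded by DDX58, had 891 and 962 reads in CTL and CTL+dox, and 1135 and 1020 in gRNA2 and gRNA2+dox, and log2 ratios of 0.12 and 0.13. MDA5, encoded by IFIH1 and chosen after its values were seen, was higher than in gRNA2 by 0.36 (0.23 to 0.50) and than in CTL+dox by 0.39 (0.25 to 0.54), beyond counting error and short of 1.5-fold. DDX41, a DNA sensor, had ratios of 0.12 and 0.19, and TICAM1, the adaptor of TLR3, -0.16 and 0.15. ZBP1, a sensor of left-handed nucleic acid chosen after its values were seen, had 11, 15, 8 and 23 reads and was called against gRNA2 (1.73, 0.58 to 3.16) but not against CTL+dox (0.64, -0.34 to 1.70). TLR7, an endosomal sensor of single-stranded RNA also chosen after its values were seen, had 21, 39, 29 and 20 reads and was called lower against CTL+dox (-0.90, -1.78 to -0.11), with a ratio of -0.26 to gRNA2.

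In the inflammasome role, IL18, a cytokine that inflammasomes mature, was the gene called lower against gRNA2. It had 2095 and 2256 reads in CTL and CTL+dox, and 3103 and 1675 in gRNA2 and gRNA2+dox, with a log2 ratio of -0.62 to gRNA2 (-0.71 to -0.53) and -0.39 to CTL+dox (-0.48 to -0.29). IL1B, matured the same way, had log2 ratios of 0.32 and 0.27. The pair thus differed in opposite directions. Beside TLR7, the genes called lower against CTL+dox, chosen after their values were seen, were TRIM32 (-0.65) and SLC46A2 (-1.23), neither of which was called against gRNA2.

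The remaining roles lay near 0. Against gRNA2 the median log2 ratio was -0.02 for 9 kinases and scaffolds, 0.01 for 13 regulators of STING, -0.05 for 13 nucleases and other restraints, 0.09 for 5 factors that bind DNA ends and -0.09 for 6 genes of cyclic dinucleotide transport or breakdown. Against CTL+dox these medians were -0.02, -0.02, -0.01, 0.06 and -0.06. OPTN, an adaptor of TBK1, had ratios of 0.06 and 0.16, and SURF4, which returns STING to the endoplasmic reticulum, 0.07 and -0.04. XRCC6, a subunit of the Ku complex, had 0.10 and -0.01. ADAR, which edits double-stranded RNA, had -0.08 and 0.22, and LRRC8A, a subunit of a channel that carries cyclic dinucleotides, -0.10 and -0.07.

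**Figure D4:**
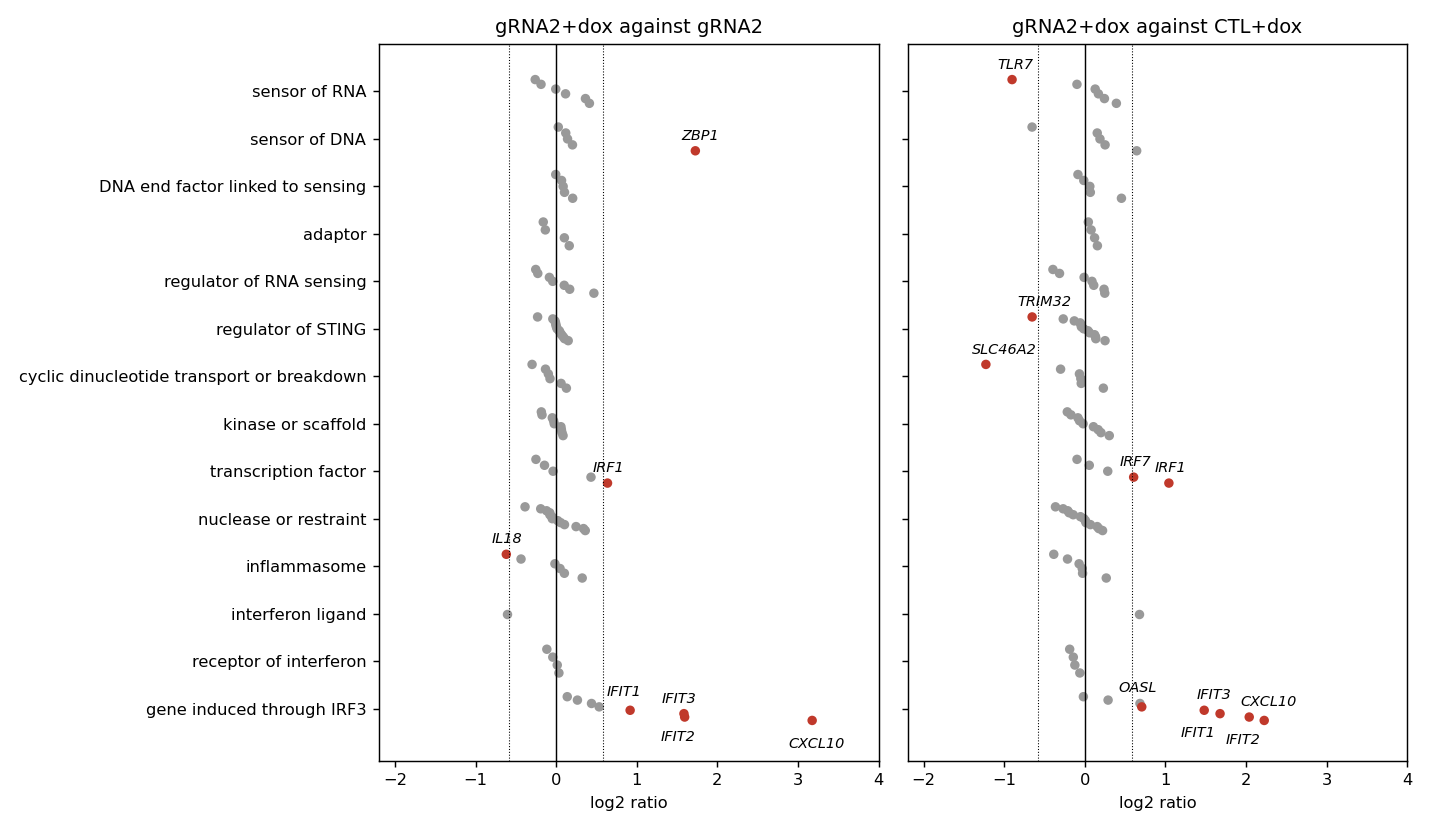
Log2 ratio of gRNA2+dox to gRNA2 (left) and to CTL+dox (right) for the 92 further genes of the pathway, in rows by role; each point is 1 gene, red points passed the 1.5-fold rule and dotted lines mark 1.5-fold. The genes induced through IRF3 extend to the right, up to CXCL10 at 3.18 and 2.23, and most other roles lie near 0.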

How the data were processed

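Total RNA was extracted with TRIzol from mammospheres of the 4 groups, 1 library each; how RNA was selected for the libraries was not given in the sources used here. The authors trimmed adaptors with fastp, aligned the reads with STAR and deposited the raw counts STAR made for each gene. The submitters' processing notes name hg38; the annotation and software versions were not given in the sources used here. STAR counts uniquely mapped reads and sets aside reads of overlapping genes. The unstranded column was used, since 49.0% to 49.1% of stranded counts lay on the first strand, and the leading summary lines were kept out of library sizes (genes held 79.7% to 81.0% of reads).

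Libraries were scaled with edgeR 4.0.16 (TMM) in R 4.3.3. Log2 ratios took a prior count of 0.5. The bound is the 1% or 99% quantile nearer 0 of the log2 ratio under Poisson error, computed in Python 3.11.15 (scipy 1.17.1, numpy 2.4.6). GFOLD itself was not run. The bound was tested on data simulated with Poisson counting error alone, so variation between cultures was not covered. Intervals are exact 95% Clopper-Pearson intervals, for the difference of ratios quantiles of the Poisson error. Reads without molecular identifiers are not independent molecules, so intervals and floors cover counting error only. Transcript lengths are those of GENCODE 44 canonical transcripts, taken from a GRCh37 annotation and used for lengths alone. Positions and promoters are from RefSeq on GRCh38.p14.

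Named genes were the 10 members, TCOF1, genes of the wider list past the 1.5-fold rule against both gRNA2 and CTL+dox, the 2 genes with the most reads in each role (not all are printed) and the 5 genes nearest to the member with the widest range among those with at least 50 reads in every library; 1 of these 5 is not reported here. The members and lists were chosen with earlier results of these data known. The alternatives tried were size factors of DESeq2 1.42.0, scaling by totals, other filters, a prior count of 5, both strands summed, an added coefficient of variation of 0.1, a bound at 5% and the log2 ratio alone.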

Additional observations from a re-analysis of the deposited data

Results flagged for a closer look

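The log2 ratio with dox had an interval clear of 0 for its difference between gRNA2 cells and CTL cells in 3 members. The difference, gRNA2 cells minus CTL cells, was 3.84 for AIM2, with 9 and 34 reads without and with dox in gRNA2 cells and 7 and 2 in CTL cells. AIM2 reached the filter of 10 reads in gRNA2+dox alone, and its difference was 2.53 with a prior count of 5, so its value is a description that rests on few reads. It was 0.40 for MAVS, where CTL+dox was the low library, and -0.34 for TMEM173, which was lower with dox in gRNA2 cells and had a ratio of 0.14 with dox in CTL cells. With 1 library per group, these differences were set against counting error alone and were not tested across cultures.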

How the results depend on the processing

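No paired analysis was possible because each group has 1 library, and for the same reason no library could be left out. Under the alternatives, each member's log2 ratio stayed within the interval of its reported value in all 275 recalculations, and 114 recalculated counts and differences kept within their limits. Other filters and the added coefficient of variation cannot change a log2 ratio. Their part of the 275 was thus fixed in advance and says nothing on how stable the ratios are. The 25 that did not were counts. With total counts only, the wider list had 0 genes called in CTL+dox against CTL and 2 in gRNA2 against CTL, in place of 1 each. With no filter, the stricter rule called 69 genes in CTL+dox against CTL in place of 41. With a filter of 50 counts in any 1 library, which leaves out AIM2, it called 36 genes against gRNA2 (89 as reported), 140 against CTL+dox (230), 123 against CTL (203), 6 in CTL+dox against CTL (41) and 39 in gRNA2 against CTL (90). The 1.5-fold rule then called 349 (611), 650 (1027), 544 (861), 224 (477) and 325 (620) in the same order. With a coefficient of variation of 0.1 added, CTL+dox against CTL had 27 genes past the stricter rule and 0 of the wider list called. With the bound at 5% the stricter rule called 218, 402, 358, 146 and 208 genes in that order, and by the log2 ratio alone 515, 778, 729, 479 and 547. Depth limits the members with few reads: AIM2, IFI16, TLR3 and IFNB1 had at most 34, 52, 6 and 3 reads in any library.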
